A study of Mus musculus with 48 samples.

Results

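Muscle endothelial cells were the cells of limb muscle that the deposited annotation calls endothelial cells, 240 of 4565 annotated muscle cells and of 553 annotated endothelial cells over all organs. The whole series held 12096 annotated cells. Transcripts were captured with Seq-Well, in which single cells settle in nanowells next to barcoded beads, and were counted as unique molecular identifiers (UMIs). All mice were DBA1/J males of 8 to 12 weeks. The 6 mice with collagen-induced arthritis (CIA; S1, S2, S3, S5, S6, and S8) had received bovine collagen II in complete Freund's adjuvant at the tail base and a booster in incomplete adjuvant on day 20, whereas the 4 healthy mice (H3, H4, H6, and H7) had received phosphate-buffered saline in place of collagen. The arthritis score was 8 in S1, S2, and S3, 4 to 5 in S5, 3 to 4 in S6, and 2 to 3 in S8. The sample names of H3 and of the mice with a score of 8 carried the prefix 2CIA and all others the prefix CIA, so that among CIA mice the score and this prefix cannot be told apart. The muscle was cryopreserved, thawed, and digested with collagenase, and in the study's sample list red cells were lysed in the muscle of H6, H7, S2, S3, S6, and S8 but not of H3, H4, S1, and S5.

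Endothelial cells line the inside of blood vessels. In skeletal muscle most of them belong to capillaries, which bring oxygen, glucose, and fatty acids to the fibres. Fatty acids are released from circulating lipoproteins at the luminal surface by lipoprotein lipase, which GPIHBP1 holds there, and are then taken up by CD36 and carried inside the cell by fatty acid binding proteins such as FABP4. Arthritis is a disease of the joint, and the comparison of CIA with healthy mice asked what the endothelium of an organ away from the joint expressed in it.

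The 240 cells held 276102 UMIs of 14545 genes, with a median of 842.5 UMIs (428 to 5377) and 432 genes per cell, and 0 of their barcodes occurred in another cell of the count table. The cells were spread unevenly over the mice. S5 alone gave 132 of the 146 cells from CIA mice and H4 gave 57 of the 94 cells from healthy mice. These libraries also stood apart in their globin UMIs, which are red cell transcripts and made up 42.46% of all endothelial UMIs in H4 and 19.71% in S5, against 0 to 1.609% in the other 7 mice with a cell. More than 50% of the UMIs were globin in 15 cells of H4 and 21 cells of S5. All levels are therefore given in CPM, here the UMIs per 1000000 non-globin UMIs of the endothelial cells of a mouse, a scale on which 1 UMI stood for 7.57 in S5 and 203 in S6. Levels were compared between the 7 mice with at least 3 cells, which were 4 healthy mice (H3, H4, H6, and H7) and 3 CIA mice (S1, S5, and S6). S2 had 1 cell, S3 had 2 cells, and S8 had 0. The nuclear genes with most UMIs were, in falling order, *Hbb-bs*, *Hba-a1*, *S100a8*, *Hbb-bt*, *Malat1*, *Gm42418*, *S100a9*, *Fabp4*, *Fth1*, and *Tmsb4x*, of which *Hbb-bs*, *Hba-a1*, and *Hbb-bt* encode globins.

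The label was checked with the markers *Cdh5* (VE-cadherin, the junction protein of endothelium), *Pecam1* (CD31), and *Fabp4*. The study named its clusters by the same genes, so that the check describes how widely they were detected and is not independent of the label. At least 1 of these markers was detected in 213 of the 240 cells, and at least 1 of 25 endothelial identity genes or *Fabp4* in 221. In mice with at least 5 cells, 75% to 100% of endothelial cells had an identity gene or *Fabp4*. The share was 14% to 88.9% of the muscle T cells, which should lack them, with the highest values in S5 (88.9% of 9 cells) and H4 (76.5% of 17 cells). When each cell was thinned to 400 UMIs, the shares were 68.8% to 100% in endothelial cells and 8.18% to 66.7% in T cells. Within S5 the endothelial and T cells were close, with 90.9% and 88.9% before thinning and 75.8% and 66.7% after it. In H4 they had 96.5% and 76.5% before thinning and 86% and 35.3% after it. The median depth was 685 to 934.5 UMIs in the endothelial cells and 502 to 712 UMIs in the T cells. *Pecam1* was detected in the endothelial cells of all 7 mice, and *Cdh5* in all but S6, in which 1 UMI of *Cdh5* would have stood for 203 CPM. The summed level of the 25 identity genes was 5606 in H3, 5624 in H4, 5638 in H6, 7238 in H7, 7012 in S1, 3385 in S5, and 5876 in S6. The level was thus lowest in the mouse with most cells.

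Markers of other cell types were also present. The 5 granulocyte markers, led by the calprotectin genes *S100a8* and *S100a9*, were all detected, and their summed level ranged from 2803 to 42980 in healthy mice and from 1079 to 61010 in CIA mice, with the highest values in S5 and H4 and the lowest in S1. The 10 fibroblast markers were all detected as well, and their level was 12690 in S5 against 434 to 2229 in the other 6 mice. Of the 7 skeletal muscle fibre markers all were detected, at 0 to 1168, and of the 6 adipocyte markers 2 were detected, at 0 to 75.7, with *Adipoq* and *Plin1* at 0 in all mice. The part of such transcripts in the comparisons below was not tested.

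Endothelial cells were a large share of the annotated muscle cells in some mice and rare in others, in both groups. The share was 22.9% in H3 (16 of 70 cells; 95% Wilson interval 14.6 to 34), 33.9% in H4 (57 of 168; 27.2 to 41.4), 1.89% in H6 (7 of 370; 0.919 to 3.85), and 3.12% in H7 (14 of 449; 1.87 to 5.17). In CIA mice it was lowest in S8, where 0 of 262 cells allow a share of up to 1.145%, had a median of 0.647%, and was highest in S5, with 37.9% (132 of 348; 33 to 43.1). The other CIA mice had 17.8% (S1, 8 of 45), 0.145% (S2, 1 of 689), 1.14% (S3, 2 of 175), and 0.151% (S6, 3 of 1989, of which 1492 were labelled myocytes). These intervals and limits cover counting error only.

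**Figure D1:**
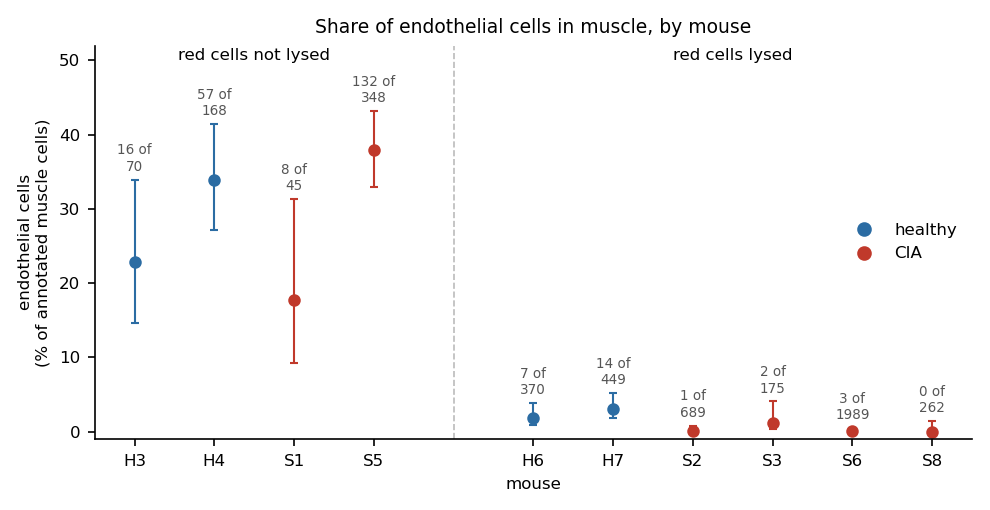
Share of endothelial cells among the annotated muscle cells of each mouse in percent, with 95% Wilson intervals as bars and the number of cells above each point, for healthy (blue) and CIA mice (red). The 4 mice whose muscle was not treated to lyse red cells (left) had 17.8% to 37.9% and the 6 others (right) had 0 to 3.12%.

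The mean share was 15.4% ± 15.6 (SD, n = 4) in healthy and 9.53% ± 15.6 (SD, n = 6) in CIA mice. The difference of -5.93 percentage points was smaller than the spread within either group (two-sided exact permutation test, p = 0.505). The difference was 0.235 percentage points in the opposite direction without H4. The mice also differed in the lysis of red cells, with 17.8% to 37.9% in the 4 mice without lysis and 0 to 3.12% in the 6 mice with lysis, a split that was noticed in the data and is given as a description. Within the mice without lysis the mean was 28.4% in 2 healthy and 27.9% in 2 CIA mice (exact permutation test, p = 1, where the smallest possible p is 0.333). Within the mice with lysis it was 2.5% in 2 healthy and 0.36% in 4 CIA mice, and these groups did not overlap (exact permutation test, p = 0.133, the smallest that 2 against 4 mice allow). Within the mice with the prefix CIA the difference was -0.286 percentage points (exact permutation test, p = 1), and the prefix 2CIA held only 1 healthy mouse.

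Some lipid handling genes, led by *Fabp4*, were higher in the endothelial cells than in the other annotated cells of the same muscle, and others were not. Of 17 markers and capillary or lipid handling genes compared, 6 were higher in every mouse used. These values describe the annotation, which was made from the same transcripts, and were not tested. *Fabp4* was higher in endothelial cells in 7 of 7 mice, by 26.6-fold in H3, 7.54-fold in H4, 48.9-fold in H6, 47.2-fold in H7, 39.8-fold in S1, 3.35-fold in S5, and 106-fold in S6. The folds were thus smallest in S5 and H4, where the other muscle cells carried 1761 and 1765 CPM of *Fabp4*, against 121 to 349 in the other 5 mice. *Cd36*, *Mgll*, *Sparcl1*, *Slc9a3r2*, and *Pecam1* were also higher in endothelial cells in 7 of 7 mice. *Cd36* had a mean of 654 in endothelial and 43.2 in other cells, and *Mgll*, the lipase for monoacylglycerols, had 371 and 22.8. *Lpl*, the lipase that GPIHBP1 anchors, was higher in endothelial cells in only 2 of 7 mice, with means of 106 and 214. *Gpihbp1* was higher in 4 of 7 mice, with means of 103 and 18.2, and *Apoe*, an apolipoprotein, was also higher in 4 of 7 mice, with means of 476 and 528.

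**Figure D2:**
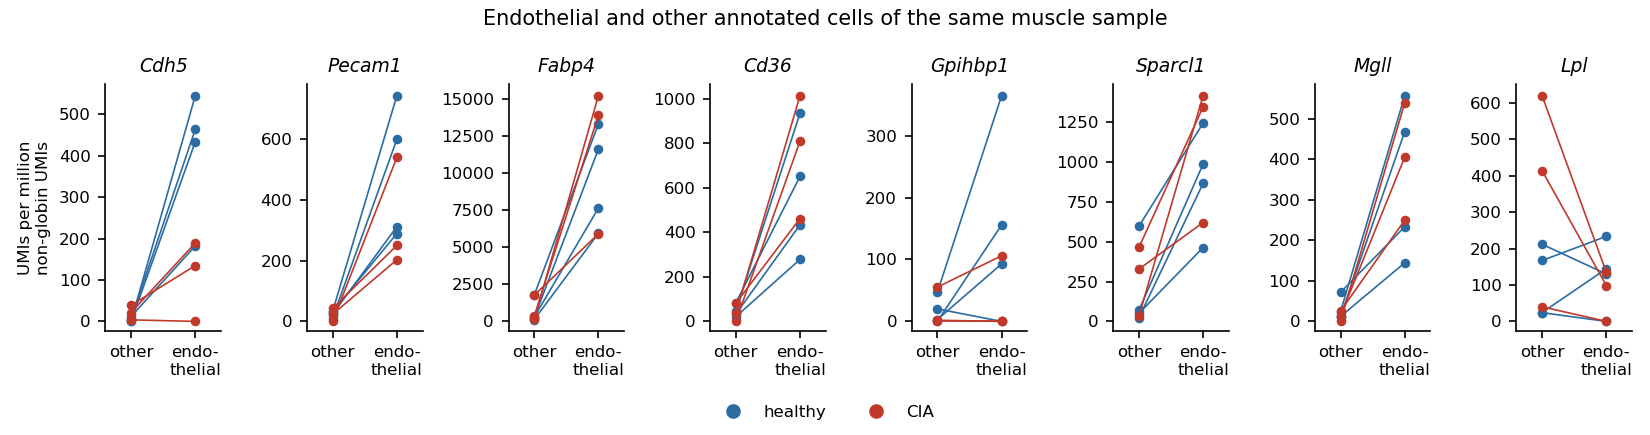
CPM (per non-globin UMIs) in the other annotated muscle cells (left of each panel) and in the endothelial cells (right) of the same mouse, joined by a line, for 8 genes in 4 healthy (blue) and 3 CIA mice (red). *Fabp4*, *Cd36*, *Sparcl1*, *Mgll*, and *Pecam1* lie higher in endothelial cells in all 7 mice, and *Lpl* in 2.

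Of 54 genes in lists of capillary genes (20 genes) and lipid handling genes (39 genes, 5 of them in both lists), 15 had at least 20 UMIs in the muscle endothelial cells, 36 had 1 to 19 UMIs, and 3 (*Pdk4*, *Ppara*, and *Vldlr*) had 0. The limit of 20 UMIs leans on S5, which gave 132049 of the 214946 non-globin UMIs. In the test across all genes, 0.0% of 117 genes were called for CIA against healthy, and only *Fabp4* and *Sparcl1* of the 54 had enough counts to enter it. The values of the 15 genes are therefore given by mouse, and the exact permutation test of 4 against 3 mice cannot go below p = 0.0571.

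*Fabp4* lies on chromosome 3 (GRCm38, 10204088 to 10208576, minus strand) and took 62.04% of all UMIs of the capillary list, counted as transcripts and so without regard to their length. Its level was 7631 in H3 (98 UMIs; 95% Poisson interval 6195 to 9299), 13300 in H4 (511; 12180 to 14510), 5927 in H6 (41; 4254 to 8041), and 11600 in H7 (125; 9656 to 13820). In CIA mice it was 13890 in S1 (103; 11340 to 16840), 5899 in S5 (779; 5492 to 6329), and 15200 in S6 (75; 11950 to 19050). S1 and S6 lay above all healthy mice and S5 below them, so that the groups overlapped. The log2 fold change of CIA against healthy was 0.29 ± 0.58 (SE; 95% interval -1.01 to 1.58) in edgeR's quasi-likelihood test, with a Benjamini-Hochberg adjusted p of 0.958. The direction turned without S1 (-0.014) and within the mice with the prefix CIA (-0.10). The single cell of S2 and the 2 cells of S3 gave 23320 (16 UMIs) and 4376 (4 UMIs). In H4 the level was 15400 in the 37 cells with at most 10% globin and 7640 in the 15 cells with over 50%, and in S5 it was 6191 in 98 cells and 4588 in 21 cells.

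*Cd36*, the fatty acid transporter of the cell surface (chromosome 5, 17781690 to 17888801, minus strand), was 934 in H3, 651 in H4, 434 in H6, and 278 in H7, and 809 in S1, 462 in S5, and 1013 in S6. The groups overlapped, and the means of 574 ± 284 and 761 ± 279 (SD) differed by less than the spread (exact permutation test, p = 0.4, n = 4 and 3). *Gpihbp1* (chromosome 15, 75596628 to 75599481, plus strand) rested on 32 UMIs. Its level was 156 in H3, 365 in H4, 0 in H6, and 92.8 in H7, and 0 in S1, 106 in S5, and 0 in S6. The zeros allow up to 434 in H6, 404 in S1, and 608 in S6 (3 UMIs each), so that no difference was detectable at this depth. *Lpl* had 23 UMIs and means of 127 ± 96.3 in healthy and 77.8 ± 69.8 in CIA mice (SD; exact permutation test, p = 0.457). *Mgll* had 351 ± 194 and 398 ± 145 (SD; exact permutation test, p = 0.8).

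*Apoe*, the apolipoprotein by which lipoprotein remnants are taken up (chromosome 7, 19696109 to 19699188, minus strand), was the member whose groups did not overlap. Its level was 156 in H3, 573 in H4, 145 in H6, and 186 in H7, and 674 in S1, 788 in S5, and 810 in S6. All 3 CIA mice thus lay above all 4 healthy mice, with means of 265 ± 206 and 757 ± 73 (SD; exact permutation test, p = 0.0571, the smallest possible). It was 1 of 15 members, and 4.27% of the 1711 genes with at least 20 UMIs did not overlap (2.1% with CIA higher). The counts were small, with 2 UMIs in H3, 1 in H6, 2 in H7, 5 in S1, and 4 in S6. *Apoe* was as abundant in the other muscle cells (mean 528) as in the endothelial cells (mean 476), and S1 had 1898 in its other cells. The part of transcripts from other cells in this difference was not tested.

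*Tcf15*, which encodes a transcription factor that acts with MEOX2 on fatty acid uptake genes in muscle and heart endothelium, was detected at 130 to 186 in healthy mice and at 0 to 135 in CIA mice (26 UMIs; exact permutation test, p = 0.114). Its partner *Meox2* had 14 UMIs. The fatty acid transport genes *Slc27a1*, *Slc27a3*, and *Slc27a4* had 1 or 2 UMIs each, *Fabp5* had 7, *Pparg* 2, and *Cpt1a*, the entry enzyme of mitochondrial fatty acid oxidation, 5. At this depth these genes cannot be compared between mice.

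**Figure D3:**
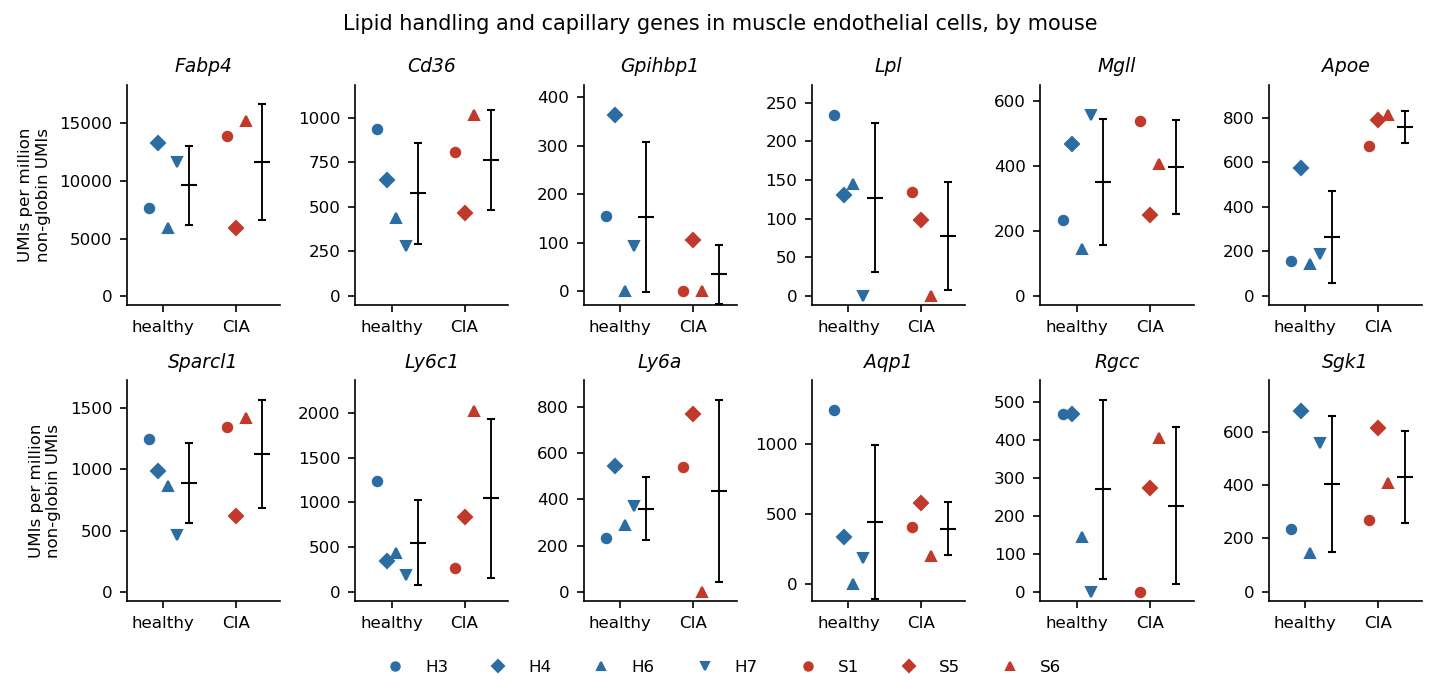
CPM (per non-globin UMIs) in the endothelial cells of each mouse for 6 lipid handling genes (top) and 6 other capillary genes (bottom), with a symbol per mouse and the mean and SD as black lines beside the 4 healthy (blue) and 3 CIA mice (red). The groups overlap in 11 of the 12 genes, and in *Apoe* the CIA mice (674 to 810) lie above the healthy mice (145 to 573).

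Among the other capillary genes, *Sparcl1*, a secreted matricellular protein of vessel walls, was 1246 in H3, 989 in H4, 867 in H6, and 464 in H7, and 1348 in S1, 621 in S5, and 1418 in S6. S1 and S6 were again above all healthy mice and S5 was not. Its log2 fold change was 0.18 ± 0.47 (SE) in edgeR's quasi-likelihood test, with a Benjamini-Hochberg adjusted p of 0.985. *Ly6c1*, a surface antigen of muscle capillaries, ranged from 186 to 1246 in healthy and from 270 to 2026 in CIA mice. *Aqp1*, the water channel of microvessels, ranged from 0 to 1246 and from 203 to 583. *Ly6a* (Sca-1), *Rgcc*, a regulator of the cell cycle that marks capillaries, *Sgk1*, a kinase induced by serum and glucocorticoids, *Slc9a3r2*, a scaffold for membrane transporters, and *Timp4*, an inhibitor of metalloproteinases, overlapped between the groups as well. The exact permutation p of the 15 members ranged from 0.0571 to 0.971. The mean was higher in CIA mice for 10 members and lower for 5, against 48.7% of 1711 genes with a higher mean in CIA.

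The summed level of the 20 capillary genes was 14400 in H3, 18510 in H4, 9108 in H6, 14200 in H7, 18070 in S1, 10840 in S5, and 22290 in S6. The mean was 14060 ± 3850 (SD, n = 4) in healthy and 17070 ± 5788 (SD, n = 3) in CIA mice, and the difference of 3012 was smaller than the spread between mice. Without *Fabp4* the sum was 2598 to 6774 in healthy and 4180 to 7092 in CIA mice. The lipid handling list had 7373 to 16190 and 8709 to 17830.

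Across all genes, no difference between CIA and healthy mice passed the test in muscle endothelial cells. Of 117 genes with enough counts, 0 were called in edgeR's quasi-likelihood test at a Benjamini-Hochberg adjusted p of 0.05, and 6 (5.13%) had an unadjusted p under 0.05. With DESeq2, 0 of 114 genes were called and 4 had an unadjusted p under 0.05. The median log2 fold change was 0.07. The following genes had the smallest p-values and all failed the adjustment (lowest adjusted p 0.928, edgeR's quasi-likelihood test). *Sdpr* (cavin-2, a coat protein of caveolae) had a log2 fold change of -1.46 ± 0.49 (SE), and *Fosb*, an immediate early transcription factor, had -0.99 ± 0.43. Higher values in CIA mice were those of *Ifitm3*, an interferon-induced membrane protein (0.97 ± 0.40), *Gas5*, a host gene of small nucleolar RNAs (0.75 ± 0.29), the uncharacterized *2410006H16Rik* (0.73 ± 0.32), *S100a6*, a calcium-binding protein (1.05 ± 0.49), and the mitochondrial genes *Cox4i1* (0.84 ± 0.37) and *mt-Nd4* (1.11 ± 0.56). *Rpl8*, of the ribosome, had 0.79 ± 0.38 and *Dynll1*, a dynein light chain, 0.70 ± 0.36. Several of these values leaned on 1 mouse. Without S5, *mt-Nd4* had 0.027, *S100a6* 0.125, *Sdpr* -2.84, and *Fosb* -1.73, without S6 *Cox4i1* had 0.50, and without S1 *Dynll1* had 0.38. On the CIA side, the *Sdpr* value without S5 rests on 1 UMI in S1 and 1 UMI in S6. In 5 of the 117 genes (4.27%) the groups did not overlap.

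Caveolae are flask-shaped pits of the plasma membrane that are dense in capillary endothelium and take part in the transport of lipids and proteins across it. Besides caveolins and cavins, the list of 8 genes holds *Plvap*, a diaphragm protein of caveolae and fenestrae, and *Ehd2* and *Ehd4*, ATPases of membrane traffic. Its summed level was lower in the 3 CIA mice than in any healthy mouse, 1 of 2 among 28 lists in which the groups did not overlap. The level was 3737 in H3 (48 UMIs; 95% Poisson interval 2756 to 4955), 3176 in H4 (122; 2638 to 3792), 3759 in H6 (26; 2455 to 5508), and 4269 in H7 (46; 3125 to 5694). In CIA mice it was 674 in S1 (5; 219 to 1573), 1886 in S5 (249; 1659 to 2135), and 810 in S6 (4; 221 to 2075). The means were 3735 ± 446 and 1123 ± 664 (SD, n = 4 and 3). The intervals cover counting error only and not the spread between mice. The mean of 7 of the 7 members with at least 20 UMIs was lower in CIA mice, against 51.3% of 1711 genes. *Sdpr* was the 1 member that did not overlap, where 2.16% of the 1711 genes did not overlap with CIA lower, with 1012 to 1635 in healthy and 135 to 500 in CIA mice. The *Sdpr* values of S1 and S6 were 1 UMI each. In the cells of S2 and S3, which were not in the comparison, *Sdpr* had 1458 and 1094 (1 UMI each), within the healthy range. *Ptrf* (cavin-1) had means of 906 and 264, and *Cav1*, the structural protein of caveolae, 410 and 163, and both overlapped between the groups. Only *Sdpr* entered the test across all genes, which it failed. In the caveolae sum, the single cell of S2 had 1458 (1 UMI; 95% Poisson interval 36.9 to 8122), below all healthy mice. The 2 cells of S3 had 4376 (4 UMIs; 1192 to 11210), above all healthy mice. In S1 the identity genes had 7012, among the highest levels, and in S5 they had 3385, the lowest.

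The interferon response list, with 22 genes of antiviral and interferon-induced proteins, was the other list whose groups did not overlap, and here the CIA mice were higher. The level was 3348 in H3, 4061 in H4, 4048 in H6, and 5661 in H7, and 6338 in S1, 5892 in S5, and 7092 in S6. The 95% Poisson intervals of S1 (4657 to 8428), S5 (5485 to 6321), and S6 (4940 to 9864) all overlapped those of H6 (2690 to 5850) and H7 (4330 to 7271), and that of S1 also overlapped that of H4 (3449 to 4751). S2 had 4373 (3 UMIs) and S3 had 5470 (5 UMIs), both under S5. Of 11 members with at least 20 UMIs, 9 had a higher mean in CIA mice, against 48.7% of 1711 genes, and 3 (*Ifitm3*, *Ifi27l2a*, and *Rsad2*) did not overlap, against 2.1% of the 1711 genes with CIA higher. *Ifitm3* was 701 to 1670 in healthy and 1824 to 2408 in CIA mice, *Ifi27l2a* was 0 to 130 and 405 to 1015, and *Rsad2*, a radical SAM enzyme with antiviral action, was 0 to 92.8 and 152 to 405. Of the 147 UMIs of *Ifi27l2a*, 134 came from S5, 4 from S1, and 2 from S6, and *Rsad2* had 28 UMIs in all. Both genes were at 0 in H6, which allows up to 434 (3 UMIs), above the 405 of S6. Between H6 and S6 the separation of *Ifi27l2a* and *Rsad2* thus lies within counting error. In the mice with most cells, *Ifi27l2a* was 1015 in S5 (134 UMIs) and 130 in H4 (5 UMIs). *Ifitm2* and *Gbp3* had a lower mean in CIA mice. Of the list only *Ifitm3* entered the test across all genes, which it failed. Other lists leaned to a higher mean in CIA mice too, among members with at least 20 UMIs. They held 5 of 5 granulocyte markers, 4 of 4 major histocompatibility complex (MHC) class II genes, and 6 of 7 MHC class I presentation genes. Of 15 endothelial identity genes, 5 had a higher and 10 a lower mean. The mean was also higher in CIA mice for 8 of 9 fibroblast markers with at least 20 UMIs. These means leaned on S5, which gave 562 of the 616 UMIs of *Gsn* and 193 of the 203 of *Col3a1*. *Col3a1* was at 0 in S1 and S6. The sum of the fibroblast markers overlapped between the groups. *Dcn*, the matrix proteoglycan decorin, was the 1 of the 9 markers that did not overlap. The share was 2.1% of the 1711 genes with CIA higher. *Dcn* had 0 to 521 in healthy mice and 944 in S1 (7 UMIs), 4036 in S5 (533 UMIs), and 608 in S6 (3 UMIs). The part of fibroblast transcripts in the interferon values was not tested.

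**Figure D4:**
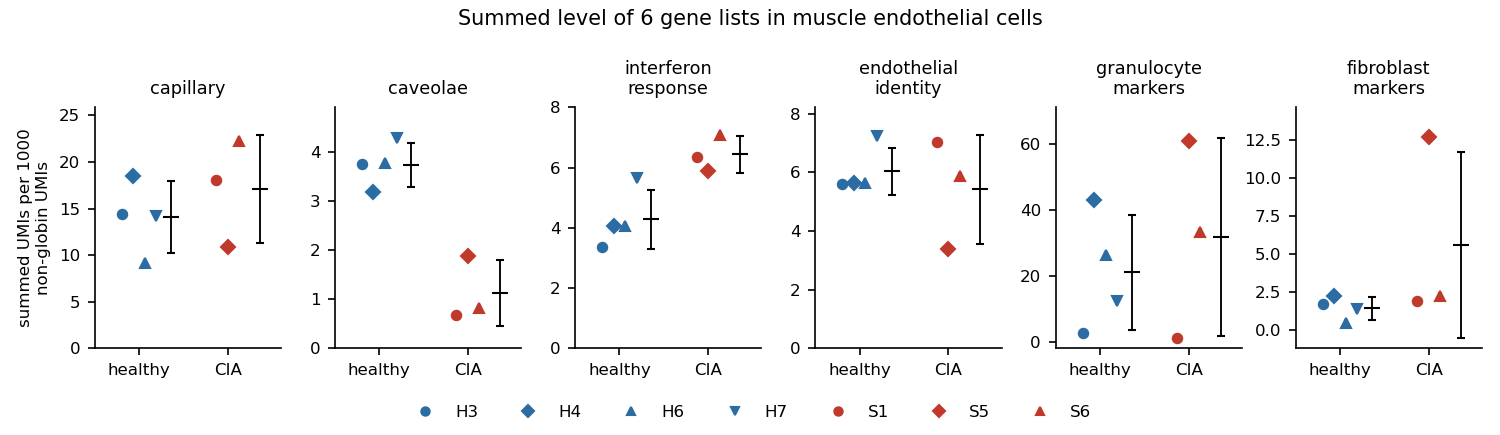
Summed level of 6 gene lists in the endothelial cells of each mouse, in UMIs per 1000 non-globin UMIs, with a symbol per mouse and the mean and SD as black lines beside the 4 healthy (blue) and 3 CIA mice (red). The CIA mice lie below the healthy mice in the caveolae list and above them in the interferon response list, and the groups overlap in the other 4 lists.

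The remaining lists overlapped between the groups. The sum of the arterial genes was 2647 to 5011 in healthy and 1824 to 2726 in CIA mice, and that of the venous genes 234 to 1301 and 0 to 809. Lymphatic genes were at 0 to 26 and 0 to 167. Genes for leukocyte adhesion and activation, which inflamed endothelium uses to hold leukocytes, had 2024 to 9831 and 3910 to 6687. MHC class I presentation had 5840 to 14310 and 7956 to 17020, and MHC class II 156 to 3526 and 404 to 7497. VEGF, angiopoietin, and Notch signalling had 2492 to 5349 and 1742 to 4255, the flow response led by *Klf2* and *Klf4* 1763 to 3270 and 1704 to 3445, and basement membrane genes 2320 to 3504 and 2967 to 3605. Immediate early and heat shock genes, which respond to handling and digestion of tissue, were abundant in all mice, with 21530 to 27540 and 19250 to 22760. Glucocorticoid and metallothionein genes had 1479 to 2313 and 608 to 3597. Of other cell types, smooth muscle and pericyte markers had 2656 to 3893 and 1219 to 6338, and macrophage markers, nearly all *Lyz2*, 312 to 4114 and 0 to 4255. T cell markers (0 to 289 and 0 to 203), NK cell markers (0 to 52.1 and 0 to 106), satellite cell markers (0 to 467 and 0 to 15.2), and keratinocyte markers (0 to 92.8 and 0) rested on few UMIs.

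The joint, the organ of the disease, was compared with muscle to see which of these genes differed between the endothelium of both organs. Joint endothelial cells were taken from 7 mice with at least 3 cells (H3, H4, S1, S3, S5, S6, and S8; 257 cells), and 5 mice had both organs (H3, H4, S1, S5, and S6). The 3 cells of S8's joint carried 0 UMIs of *Fabp4* and of the identity genes but 36780 CPM of *Prg4*, so that they went against their label. *Fabp4* was 5899 to 15200 (median 11600) in muscle and 0 to 9178 (median 5306) in joint, and was higher in muscle in 5 of 5 mice. *Cd36* was 278 to 1013 (median 651) in muscle and 0 to 624 (median 140) in joint, and was also higher in muscle in 5 of 5 mice. Their log2 fold changes of muscle against joint were 0.97 ± 0.51 (SE) and 1.08 ± 0.50, and neither passed edgeR's quasi-likelihood test (Benjamini-Hochberg adjusted p = 0.341 and 0.277). *Fabp4* had 0.25 in healthy mice alone and 0.43 with at least 10 cells per mouse. Without S8 the log2 fold changes of *Fabp4* and *Cd36* were 0.78 and 1.01, with adjusted p of 0.309 and 0.308 in the same test. The 3 other capillary genes with enough counts were *Ly6c1* (0.43 ± 0.44), *Sparcl1* (-0.32 ± 0.46), and *Aqp1* (-0.53 ± 0.55). The sum of the capillary list was 9108 to 22290 in muscle and 623 to 13370 in joint and was higher in muscle in 5 of 5 mice, and that of the caveolae list in 2 of 5.

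Over all genes, 0 of 258 (0.0%) were called between the organs in edgeR's quasi-likelihood test, with a lowest Benjamini-Hochberg adjusted p of 0.0682, and 43 (16.7%) had an unadjusted p under 0.05. With the mouse as a block, a fit to which only the 5 mice with both organs contribute, 2 genes (0.775%) were called, *Rbp7* and *Prg4*, and DESeq2 called 34 of 257 genes (13.2%), with neither *Fabp4* nor *Cd36* among them. *Rbp7*, an intracellular retinol-binding protein (chromosome 4, 149449687 to 149454978, minus strand), was higher in muscle. It was 1947 in H3, 2551 in H4, 145 in H6, 1578 in H7, 4854 in S1, 765 in S5, and 4053 in S6 in muscle, and in joint 514 in H3, 1180 in H4, 370 in S1, 0 in S3, 52.8 in S5, 465 in S6, and 0 in S8. Each of the 5 mice with both organs had more in muscle, whereas H6 had less in muscle than 4 of the 7 mice in joint. The log2 fold change was 2.51 ± 0.68 (SE; adjusted p = 0.0682 in edgeR's quasi-likelihood test) and 2.74 ± 0.42 with the mouse as a block (adjusted p = 0.0199). It was 1.15 in healthy mice alone and 1.57 with at least 10 cells per mouse. *Prg4*, which encodes lubricin, the lubricant made by synovial lining cells, was 0 to 174 in muscle and 0 to 36780 in joint, with log2 fold changes of -5.00 ± 1.51 and, with the block, -3.90 ± 0.65 (adjusted p = 0.0942 and 0.0199 in the same test). It had too few counts to be tested without S8 or without S5. *Rbp7* and *Prg4* were named after their values were seen.

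**Figure D5:**
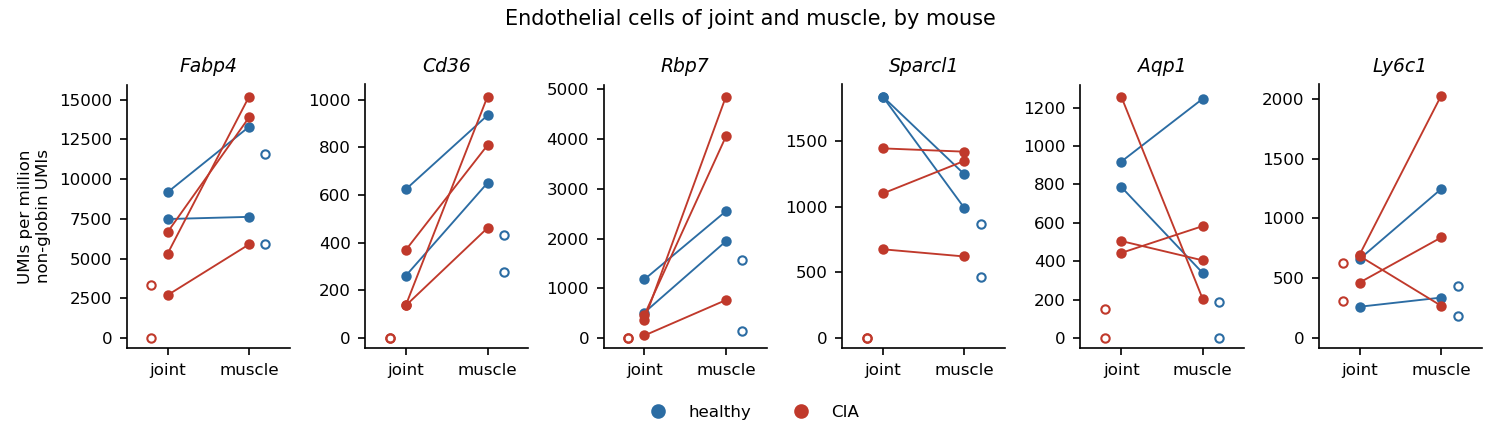
CPM (per non-globin UMIs) in joint and muscle endothelial cells of each mouse for 6 genes, with lines joining the 5 mice that had at least 3 cells in both organs and open points for mice with 1 organ, in healthy (blue) and CIA mice (red). *Fabp4*, *Cd36*, and *Rbp7* were higher in muscle in 5 of 5 mice, although *Fabp4* in H3 was nearly equal (7631 in muscle and 7494 in joint).

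MHC class II genes, which present antigen and are made by leukocytes and by some endothelium, were the group with 3 of 3 tested members at an unadjusted p under 0.05, all higher in muscle, against 16.7% of all genes in either direction, and none passed the adjustment in edgeR's quasi-likelihood test. *Cd74* had a log2 fold change of 2.83 ± 0.73 (SE; adjusted p = 0.0682), *H2-Aa* 3.02 ± 0.90 (adjusted p = 0.0942), and *H2-Ab1* 2.26 ± 0.91 (adjusted p = 0.195). With the mouse as a block they were 1.98, 2.35, and 1.49, with unadjusted p of 0.0364, 0.0434, and 0.244 in the same edgeR test, so that 2 of 3 were under 0.05. Of the 5 mice with both organs, 3, 4, and 2 had more in muscle. DESeq2 called *Cd74* and *H2-Aa*. The summed list was 156 in H3, 286 in H4, 1879 in H6, 3526 in H7, 404 in S1, 2242 in S5, and 7497 in S6 in muscle, and 0 to 422 in joint. It was therefore within the joint's range in H3, H4, and S1 and above it in the other 4 mice. The B cell markers had 1621 in S6 and 0 to 289 in the other 6 mice. *Igkc*, an immunoglobulin gene, was 434 in H6, 742 in H7, 288 in S5, and 2634 in S6. It was 0 in H3, 26 in H4, and 0 in S1, so that it was higher in the same 4 mice as the MHC class II sum. In joint it was 0 to 31.7. The part of B cell transcripts in the MHC class II values was not tested.

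Whether CIA changed muscle and joint endothelium to a different degree was tested as an interaction of organ and disease. Of 258 genes, 0 (0.0%) were called in edgeR's quasi-likelihood test and 5 (1.94%) had an unadjusted p under 0.05, with a lowest Benjamini-Hochberg adjusted p of 0.999, and DESeq2 called 0 with 7 genes at an unadjusted p under 0.05. For *Fabp4* the difference of the log2 fold changes was 1.28 ± 1.04 (SE; 95% interval -0.93 to 3.50), a range that spans a lower and a higher effect in muscle.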

How the data were processed

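The authors aligned the reads with STAR, counted UMIs with the Drop-seq tools, and deposited the counts per gene and cell without normalization, after limits on reads, UMIs, genes, and mitochondrial UMIs per cell. The study's methods give GRCm38 as the genome, whereas the submitters' processing notes list GRCh38 and mm9. Gene positions are from GENCODE vM21 (GRCm38). Cell types are the deposited annotation, 0 were rebuilt, and no doublets were removed here. Counts of the annotated cells were summed per mouse, and a mouse entered with at least 3 cells, since the first limit of 5 cells left under 3 CIA mice. The depth was 4944 to 164466 UMIs per mouse used.

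edgeR 4.0.16 (R 4.3.3) was run on the sums as its quasi-likelihood test, with TMM factors, filterByExpr, and Benjamini-Hochberg adjustment, with DESeq2 1.42.0 as an alternative. The edgeR fits were also run on counts simulated from a pooled mean profile with known changes. In that simulation transcripts of other cell types did not vary between mice as they do here, so that it cannot show their effect on the fits. For single genes, exact permutation tests over mice were two-sided (scipy 1.17.1), and zeros were given the limit of 3 UMIs. p-values rest on mice, 1 sample per organ each. Joint and muscle samples of a mouse come from the same animal by the mouse identifier in the labels, and their deviations from the organ means correlated by -0.39 to 0.46 over 258 genes. Named were the 3 markers, capillary and lipid handling genes of at least 20 UMIs, called genes or else the 10 of smallest p, the 10 genes with most UMIs, and up to 4 members of each other list. Cells, lists, and tests were chosen with earlier results of these data known. The authors' fold changes were not used, and the lung, skin, and spleen cells were not analysed here, and 1 list of markers of another cell type is not reported here.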

Additional observations from a re-analysis of the deposited data

Results flagged for a closer look

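In 48 groups of values from 4 mice, the mouse farthest from the others was compared with Dixon's critical value, and 8 groups held a healthy mouse beyond it. Chance gives about 1 in 20 for normally distributed values. That rate does not hold for sums that were 0 in all mice but 1, so that the 8 groups are not set against it. Levels of the 3 CIA mice, a smaller group, were not compared in this way. H4 had 42.46% globin among its endothelial UMIs, with 1.609% in the nearest healthy mouse. *Apoe* in H4 was 573 CPM, with 186 in the nearest mouse, and without H4 the healthy mice were at 145 to 186. H7 had 7238 CPM of endothelial identity genes (nearest 5638) and 5011 of arterial genes (nearest 2891). The other flags rest on few UMIs, with 467 CPM of satellite cell markers in H3 (nearest 26), 289 of B cell markers in H6 (nearest 26), 26 of lymphatic genes in H4 (others 0), and 52.1 of NK cell markers in H4 (others 0).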

How the results depend on the processing

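CIA against healthy gave 0 called genes under all 18 alternatives run (DESeq2, RLE factors, plain library size, low counts kept, a limit of 1 or of 5 cells, the prefix or red cell lysis as a term, the prefix CIA alone, globin genes or globin-rich cells left out, and each mouse left out in turn), and the interaction gave 0 under 20. At least 10 cells per mouse left too few CIA mice for either and was not run. Muscle against joint gave 34 genes with DESeq2, 6 with at least 1 cell per mouse (*Dynll1*, *Igfbp7*, *Mir6236*, *Timp3*, *Prg4*, and *Rbp7*), 4 without the filter (*Dpep1*, *Igkc*, *Prg4*, and *Cma1*), 4 with the prefix CIA alone (*Cd74*, *H2-Aa*, *Igkc*, and *Prg4*), 2 with the mouse as a block, 0 to 1 when a mouse was left out (*Ogn* without H3), and 0 in the main fit and the other alternatives. *Rbp7* kept its direction under all 22 alternatives (1.15 to 2.74) and was called in 3. The *Fabp4* change in CIA turned to -0.022 without the filter, -0.10 with the prefix CIA alone, and -0.014 without S1, and was 0.045 to 0.57 otherwise; *Sparcl1* turned to -0.059 without S1. The cause was not tested. The difference in share ranged from -11.6 to 0.235 percentage points when a mouse was left out, with the highest value without H4, and the capillary sum differed by 401 to 7609, always higher in CIA. No paired analysis was possible because healthy and CIA mice are different animals, and the mice used share only the number 6. With the mouse as a replicate block, the interaction also gave 0 genes. Depth limits the comparison, since 39 of the 54 capillary and lipid handling genes had under 20 UMIs and S6 rests on 3 cells.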

Other observations

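Cells of muscle without an annotation also carried endothelial transcripts in some mice. *Fabp4* was 10150 CPM in 20 such cells of H4, 3712 in 5 cells of H3, and 3431 in 23 cells of S5, and 0 to 1292 in the other 7 mice. The identity genes had 3660 in H4, 6032 in H3, and 1771 in S5, and 0 to 596 in the others. These cells were in no comparison, and the share of endothelial cells among all muscle cells of the count table, in which they are counted as not endothelial, was 30.3% in H4 and 35.6% in S5.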
